A study of Rattus norvegicus with 30 samples.

Results

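Antioxidant enzymes were followed through the mRNAseq data of normal rat kidneys before and during a high salt intake. The set was chosen by gene name and holds 10 of the 32545 genes counted: the glutathione peroxidases *Gpx1*, *Gpx3* and *Gpx4*, the superoxide dismutases *Sod1*, *Sod2* and *Sod3*, catalase (*Cat*), *Nqo1*, *Gclc* and *Txnrd1*. Male Sprague-Dawley rats, an outbred strain without a transgene, ate a diet with 0.4% NaCl (LS) or were moved from it to 4.0% NaCl for 14 d (HS14) or 21 d (HS21). The cortex (Cx) and outer medulla (OM) of the right kidney gave 5 libraries per diet group each, 30 in all. Each library is a bulk dissection, so its RNA is a mixture of nephron segments, vessels and interstitial cells, and no cell type was separated.

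Superoxide formed by respiration and by oxidases is converted to hydrogen peroxide by the superoxide dismutases, which differ in place: *Sod1* in the cytosol, *Sod2* in the mitochondrial matrix and *Sod3* outside the cell. Catalase in peroxisomes and the glutathione peroxidases then remove the peroxide, the latter at the cost of glutathione, whose synthesis starts with the enzyme encoded by *Gclc*. *Gpx1*, *Gpx3*, *Gpx4* and *Txnrd1* encode selenoproteins, and *Nqo1*, *Gclc* and *Txnrd1* are classical targets of the transcription factor NRF2 (*Nfe2l2*), which acts at the antioxidant response element. The kidney, above all its proximal tubule, is the main source of the plasma enzyme encoded by *Gpx3*.

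The libraries held between 5408126 and 21842843 counts on genes, and all but the shallowest, OM HS14 replicate 10, held at least 12748841. The paper's mapping summaries also give this library the lowest mapped share and the lowest exonic share. Levels are given as CPM, counts scaled to a common library size after correction by the trimmed mean of M values. The tissue labels were checked with segment markers. The convoluted proximal tubule gene *Slc5a2* stood at 462 to 829 CPM in the Cx and at 1.35 to 63.3 CPM in the OM, and the straight proximal tubule gene *Slc7a13* stood at 14.2 to 189 CPM and at 937 to 6248 CPM. In both, the highest OM value belonged to OM LS replicate 2. In this library the summed level of 8 convoluted proximal tubule markers was 6307 CPM, against a median of 1647 CPM in its group, and OM LS replicate 5 had the lowest sum, 214 CPM. In the Cx, HS14 replicate 10 had the lowest sum of its group, 9411 CPM against a median of 12991 CPM. Where a call of one of the 10 genes turned on one of these libraries, its value without that library is given beside it. Ratios that only changed sign with libraries left out are given as ranges at the end.

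On the LS diet the 10 genes covered a wide range of levels in the Cx. Levels of different genes were compared on the authors' FPKM, which are per kilobase of gene length. *Gpx3* was the highest in the Cx, with a median of 18936 FPKM, 15.8 times the median of *Gpx1*, 1202 FPKM. *Sod1* followed at 644 FPKM, *Cat* at 383 FPKM and *Sod3* at 245 FPKM, and from *Gpx3* to *Sod2* the ranges of neighbours in this order did not overlap. *Sod2* (149 FPKM), *Gclc* (121 FPKM) and *Txnrd1* (79.4 FPKM) formed a stretch in which the ranges of neighbours overlapped. *Nqo1*, at 2.36 FPKM, and *Gpx4*, at 0.608 FPKM, were the lowest.

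In the OM the order was led by *Gclc*, with a median of 2454 FPKM, and *Gpx3* came next at 559 FPKM. The ranges of neighbours overlapped from *Gclc* through *Gpx3*, *Sod1* (467 FPKM) and *Cat* (297 FPKM) to *Gpx1* (216 FPKM). Within each of the 5 libraries, however, *Gclc* was the highest, and *Sod1* was above *Cat* and *Gpx1*. The place of *Gpx3*, and the order of *Cat* and *Gpx1*, changed from library to library. *Sod2* (123 FPKM), *Sod3* (55.1 FPKM), *Txnrd1* (41.8 FPKM), *Nqo1* (9.61 FPKM) and *Gpx4* (0.813 FPKM) followed.

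**Figure D1:**
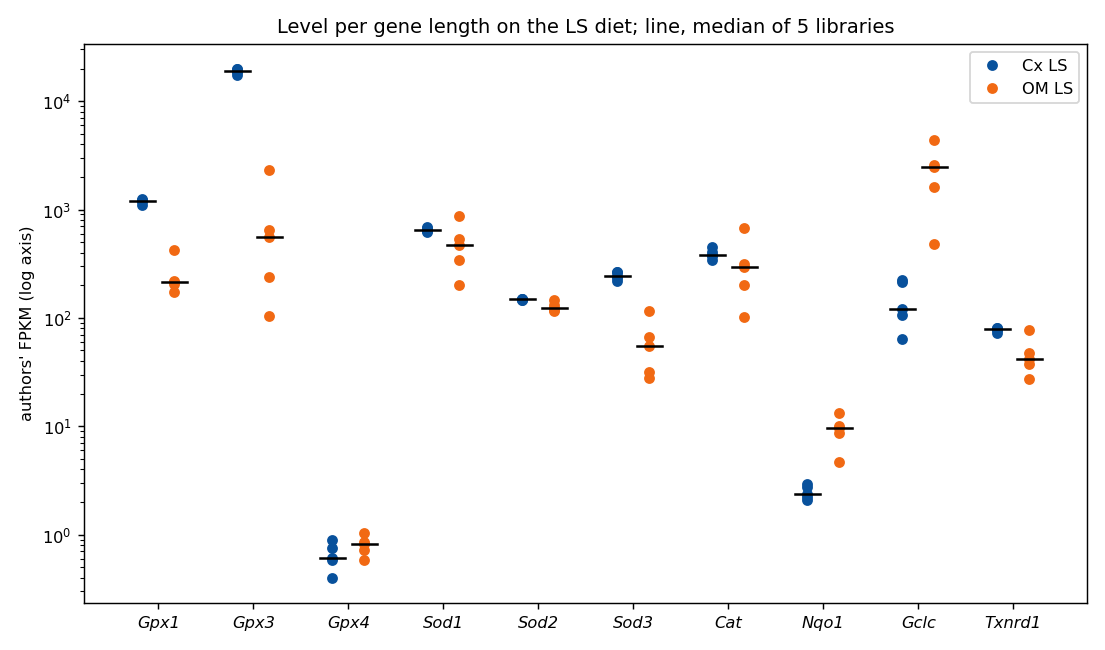
The authors' FPKM (log axis) of each gene in the 5 LS libraries of the Cx (blue) and of the OM (orange), with the median as a line. *Gpx3* led in the Cx at a median of 18936 FPKM and *Gclc* led in the OM at 2454 FPKM, and the OM libraries were the more scattered for most of the genes.

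The gene lowest in both tissues, *Gpx4*, which encodes the phospholipid hydroperoxide peroxidase, was counted at only 2 to 24 read pairs per library. Its annotated span in Rnor_6.0, chr7:12516357-12519154 on the minus strand, shares 2298 of its 2798 bases (82.1%) with *Sbno2*, which lies on the plus strand at chr7:12471824-12518654. These spans include introns, and the overlap of exons was not computed. The libraries were not strand-specific, so reads from an exon stretch shared by both genes could not be assigned to one of them. The counting was run at its default settings, which leave out reads that overlap more than 1 gene. The part of this in the low counts of *Gpx4* was not tested, and these counts are uncertain. None of the other 9 genes overlaps another annotated gene.

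Since *Nqo1*, *Gclc* and *Txnrd1* are read as targets of one factor, the promoters of the set were searched for its element, and the windows that hold it are shown. RefSeq promoter windows of the build GRCr8, from 250 bases before to 50 bases after an annotated start, were found for 9 of the 10 genes, in 12 windows. The core of the antioxidant response element, TGACNNNGC, was searched on both strands and was found in 1 window of *Sod2* and in 1 of the 2 windows of *Txnrd1*. Of all 33469 windows 12.1% hold it. The 2 windows are printed 5′ to 3′ on the strand of the gene, with the match in capitals, which is the core read on the opposite strand. The match begins 35 bases before the start in *Sod2* (chr1:50050119-50050418, minus strand) and 78 bases before it in *Txnrd1* (chr7:22755855-22756154, minus strand). A window without a match says only that these letters are not in these bases.
Sod2: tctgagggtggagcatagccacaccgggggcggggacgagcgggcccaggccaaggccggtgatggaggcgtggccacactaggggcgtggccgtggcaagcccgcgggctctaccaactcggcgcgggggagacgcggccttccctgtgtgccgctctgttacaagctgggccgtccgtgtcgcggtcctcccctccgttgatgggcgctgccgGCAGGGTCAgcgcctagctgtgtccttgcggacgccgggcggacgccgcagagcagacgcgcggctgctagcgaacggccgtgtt
Txnrd1: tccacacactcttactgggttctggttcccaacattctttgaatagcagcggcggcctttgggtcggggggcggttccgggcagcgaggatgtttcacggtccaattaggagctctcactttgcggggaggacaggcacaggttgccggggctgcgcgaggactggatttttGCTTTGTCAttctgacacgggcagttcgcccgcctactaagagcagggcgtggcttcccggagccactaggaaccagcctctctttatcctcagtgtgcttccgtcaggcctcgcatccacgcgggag

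The first question was how the salt diet changed these genes in the Cx. By 14 d *Gpx1*, the cytosolic and mitochondrial glutathione peroxidase, was lower, and by 21 d 6 of the 10 genes were lower, *Gpx1*, *Gpx3*, *Sod1*, *Sod3*, *Cat* and *Txnrd1*, with changes between -21.1% and -32.4%, where 20.5% of all genes tested were called lower. *Nqo1*, a quinone reductase, was 1.48-fold higher at 21 d, and *Sod2* was at its LS level. In bulk tissue a smaller number of cells of one type and less RNA per cell cannot be told apart.

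**Figure D2:**
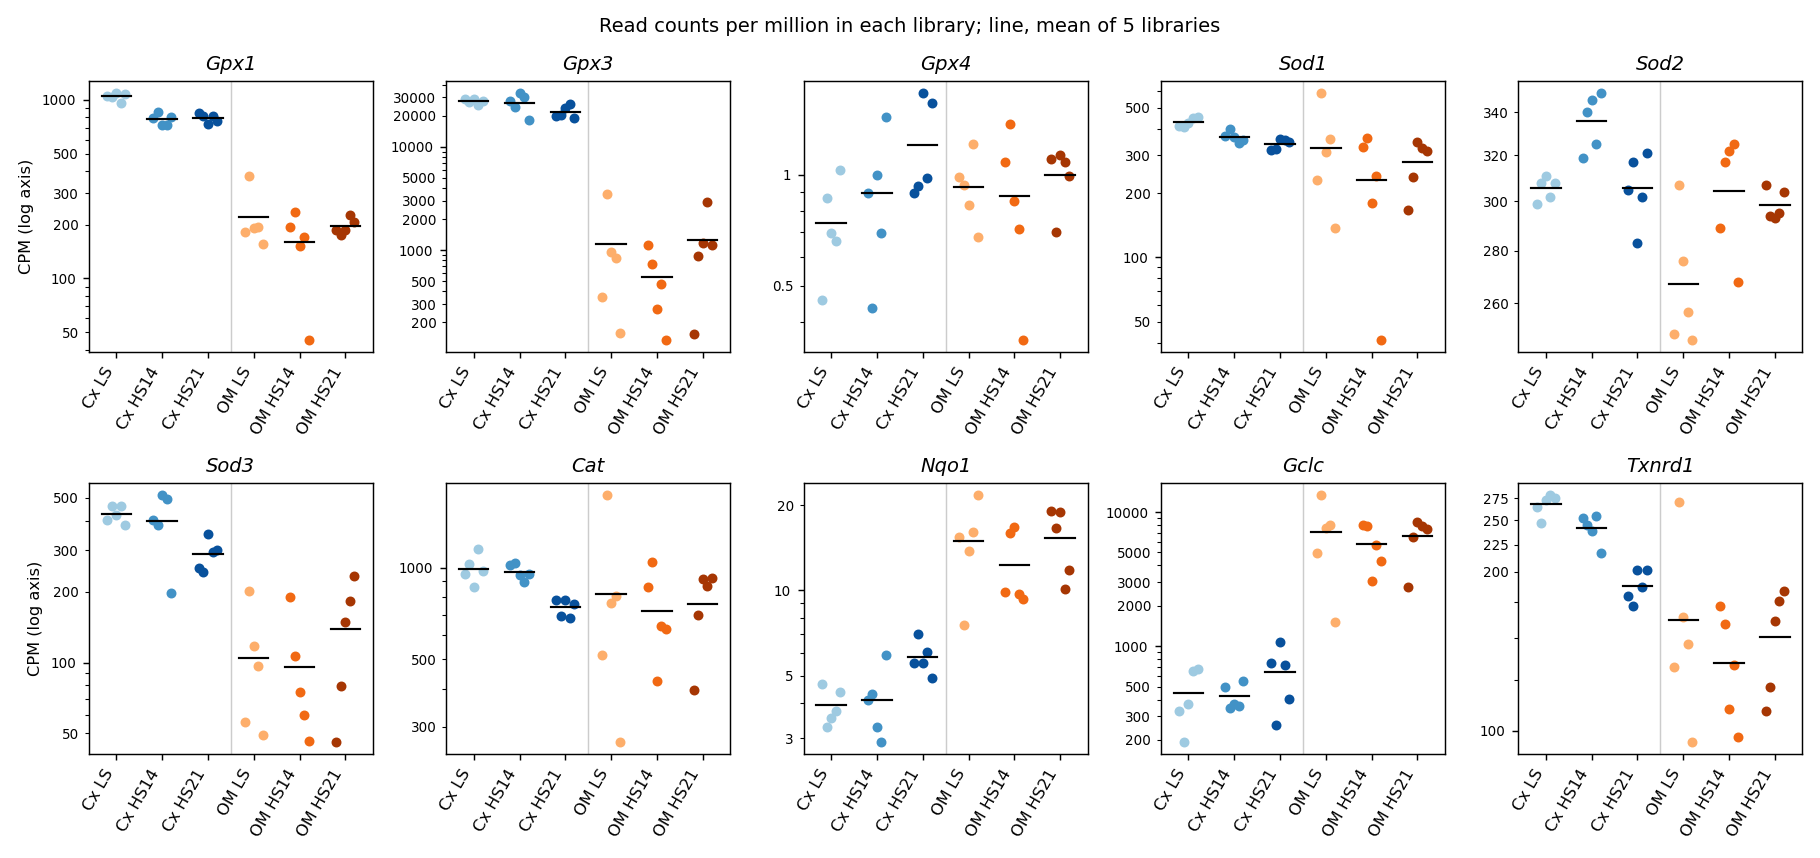
CPM (log axis, scaled separately in each panel) of the 10 genes in every library, with the group mean as a line. In the Cx all HS21 libraries lie below all LS libraries for *Gpx1*, *Sod1*, *Sod3*, *Cat* and *Txnrd1* and above them for *Nqo1*, while in the OM the HS groups overlap LS for each gene.

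*Gpx1* (chr8:117117430-117118522, plus strand) was 1052, 1043, 1089, 965 and 1082 CPM in the 5 LS libraries of the Cx. It was 797, 861, 724, 720 and 800 CPM at HS14 and 843, 813, 731, 818 and 759 CPM at HS21. Every HS library of either day was below every LS library, and the 2 HS groups overlapped. The log2 ratio to LS was -0.43 ± 0.06 (SE, adjusted *P* = 0.0105) at HS14 and -0.40 ± 0.06 (adjusted *P* = 0.000268) at HS21, both by edgeR's quasi-likelihood test with Benjamini-Hochberg adjustment over all genes tested. Between HS14 and HS21 it differed by 0.03 ± 0.07 (adjusted *P* = 0.811). *Gpx1* was called lower on both days under each of the 6 other settings and in each of the 10 fits with 1 library left out.

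At HS14 *Gpx1* and *Sod1* were the 2 genes of the 10 called lower and none was called higher. Of the 14181 genes tested, 2.33% were called in either direction and 1.18% were called lower. *Sod1* (chr11:30363280-30368862, plus strand), the copper-zinc enzyme of the cytosol, was 413, 407, 423, 449 and 455 CPM on LS and 370, 399, 364, 343 and 354 CPM at HS14. The 2 groups did not overlap, with a log2 ratio of -0.24 ± 0.05 (adjusted *P* = 0.0463). This call is close to the threshold, and it was kept in 2 of the 10 fits with 1 library left out and under 3 of 6 other settings.

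*Sod2* (chr1:47914759-47921587, minus strand), the manganese enzyme of mitochondria, was the other gene without overlap at HS14. It was 299, 308, 311, 302 and 308 CPM on LS and 319, 340, 346, 325 and 349 CPM at HS14, a log2 ratio of 0.13 ± 0.05 that did not pass the test (adjusted *P* = 0.163). Its mean at HS21 was 306 ± 14.7 CPM (SD, n = 5), as on LS (306 ± 4.84 CPM), and its log2 ratio was 0.00 ± 0.04 (adjusted *P* = 0.972). In all, 3 of the 10 genes had HS14 and LS libraries that did not overlap, against 5.07% of all genes tested. For each of these 3 the exact permutation test, two-sided, gave *P* = 0.00794, the smallest value that regroupings of 5 and 5 libraries can give. Groups without overlap always give this value, so the test adds nothing to the separation itself.

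At HS21 the Cx differed widely from LS. Of the 14299 genes tested, 39.4% were called, 18.9% higher and 20.5% lower, and 26.6% had groups that did not overlap. Scaling by total counts moved this split to 4401 genes higher and 1653 lower and the median of all genes to 0.13 on the log2 scale. Of the 10 antioxidant genes 1 was called higher and 6 lower, and 6 had groups that did not overlap. Their median log2 ratio was -0.35, against 0.00 over all genes tested. Under total-count scaling the 6 genes kept their direction, and *Gpx3* lost its call.

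**Figure D3:**
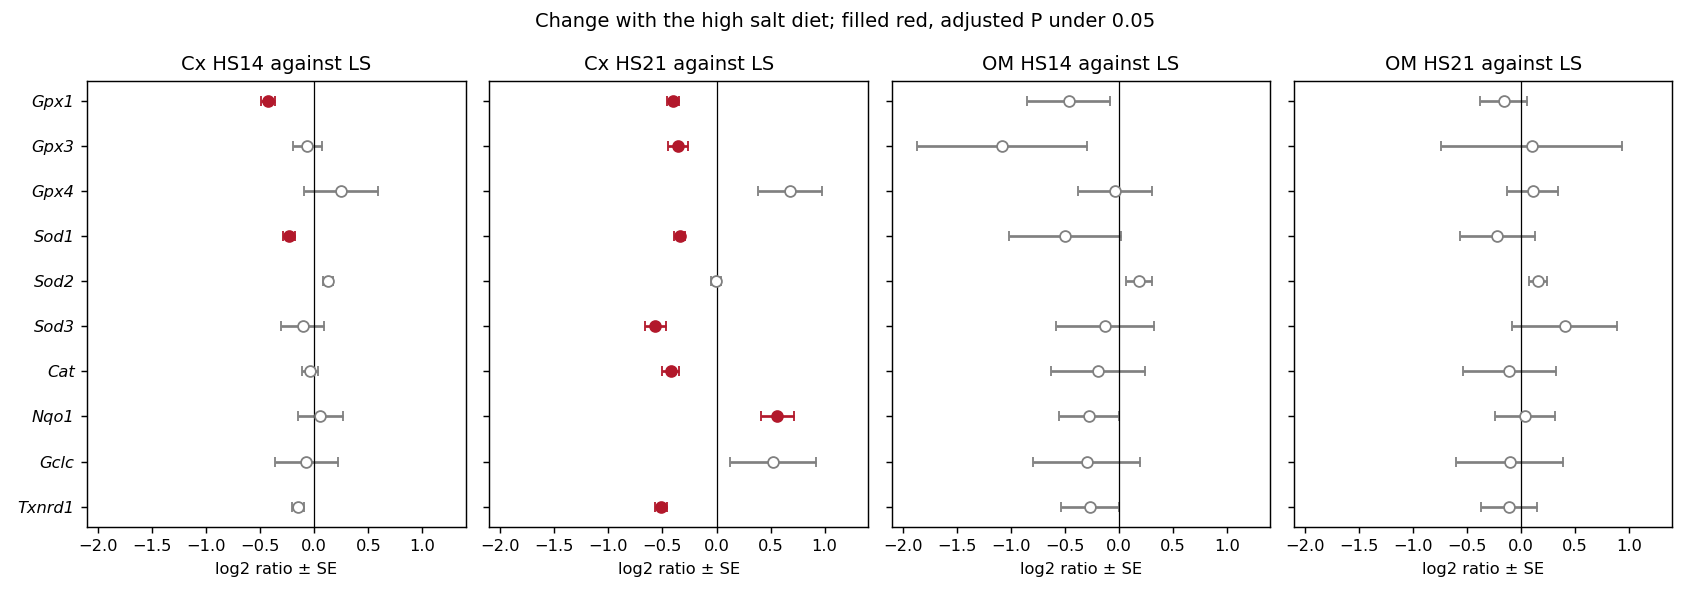
Log2 ratio to LS (x axis) with its SE for each gene at HS14 and HS21 in the Cx and the OM, filled red where the adjusted *P* was under 0.05. The Cx has 2 filled points at HS14 and 7 at HS21, the OM has none, and the SE bars of the OM are the wider for most of the genes.

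Of the superoxide dismutases, *Sod3* fell most at HS21. *Sod3* (chr14:60958592-60964324, minus strand), the extracellular enzyme, was 402, 460, 424, 462 and 382 CPM on LS and 253, 242, 351, 296 and 299 CPM at HS21, with a log2 ratio of -0.57 ± 0.10 (adjusted *P* = 0.000998). *Sod1* was 317, 323, 358, 355 and 345 CPM at HS21, with a log2 ratio of -0.34 ± 0.05 (adjusted *P* = 0.000497). Every HS21 library was below every LS library for both genes. At HS14 *Sod3* was 401, 382, 514, 496 and 197 CPM and did not pass the test (log2 ratio -0.11 ± 0.20, adjusted *P* = 0.838). The value of 197 CPM is that of replicate 10, and it lies below all HS21 libraries.

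Among the enzymes that remove hydrogen peroxide, *Cat* (chr3:93379874-93412058, minus strand) was 951, 1024, 864, 1148 and 974 CPM on LS and 1016, 1036, 943, 898 and 949 CPM at HS14, so that these groups overlapped. At HS21 it was 783, 695, 784, 682 and 758 CPM, below every library of both other groups. The log2 ratio was -0.42 ± 0.08 to LS (adjusted *P* = 0.0013) and -0.38 ± 0.07 to HS14 (adjusted *P* = 0.0084). *Gpx3* (chr10:40247436-40255422, plus strand), the secreted peroxidase, ranged from 25519 to 28908 CPM on LS, from 18202 to 32873 CPM at HS14 and from 18826 to 25659 CPM at HS21. The HS21 and LS groups overlapped narrowly, and the log2 ratio was -0.36 ± 0.09 (adjusted *P* = 0.011). This call was kept in all 10 fits with 1 library left out but was lost under 3 of 6 other settings, where the adjusted *P* was between 0.0509 and 0.0935.

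*Txnrd1* (chr7:26946125-26984400, minus strand), the cytosolic thioredoxin reductase, was 265, 247, 273, 279 and 275 CPM on LS, 253, 245, 239, 255 and 217 CPM at HS14 and 180, 172, 201, 187 and 201 CPM at HS21. The HS21 libraries were below all others of the Cx. The log2 ratio was -0.51 ± 0.06 to LS (adjusted *P* = 6.55e-05) and -0.36 ± 0.06 to HS14 (adjusted *P* = 0.00915), and at HS14 it was -0.15 ± 0.05 to LS (adjusted *P* = 0.165). *Txnrd1* and *Cat* were the 2 genes of the 10 called lower between HS14 and HS21, where 9.69% of 14395 genes tested were called lower (1395, and 644 under total-count scaling) and 9.66% had groups that did not overlap. Without HS14 replicate 10, *Gpx3* (-0.41, adjusted *P* = 0.0419) and *Sod3* (-0.64, adjusted *P* = 0.00603) were also called lower between these days and *Nqo1* was called higher (0.67, adjusted *P* = 0.0222).

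*Nqo1* (chr19:38422164-38437180, plus strand) was at a low level in the Cx. It was 4.66, 3.29, 3.55, 3.75 and 4.37 CPM on LS, 4.11, 4.29, 3.3, 2.92 and 5.92 CPM at HS14 and 5.53, 7.04, 5.53, 6.08 and 4.9 CPM at HS21. Every HS21 library was above every LS library, with a log2 ratio of 0.56 ± 0.15 (adjusted *P* = 0.0121) that was called in each of the 10 fits with 1 library left out. Of the other NRF2 targets of the set *Txnrd1* fell and *Gclc* was not called. Of these 3 genes only *Txnrd1* has a window with the element's core, as printed above.

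*Gclc* (chr8:85059051-85097468, plus strand), the catalytic subunit of glutamate-cysteine ligase, varied widely between Cx libraries, with a coefficient of variation of 48.1% on LS, 21.5% at HS14 and 49.9% at HS21. Its 5 values were 327, 194, 369, 658 and 682 CPM on LS and 749, 258, 1076, 727 and 403 CPM at HS21. The groups overlapped, with 3 of the 5 HS21 values above the highest LS value, and the log2 ratio of 0.52 ± 0.40 did not pass the test (adjusted *P* = 0.323). *Gpx4* was 0.741 ± 0.215 CPM on LS and 1.2 ± 0.374 CPM at HS21 (SD, n = 5), a log2 ratio of 0.68 ± 0.29 (adjusted *P* = 0.084).

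The Cx libraries also differed in their segment, immune and tubular injury markers. At HS21 all 8 convoluted proximal tubule markers were lower than on LS, with a median log2 ratio of -0.71, and their summed level was 8080 to 10614 CPM against 13166 to 14173 CPM on LS. All 7 tested collecting duct markers were higher (median 0.73), as were all 7 tested leukocyte markers, whose summed level was 216 to 649 CPM at HS21 and 98.1 to 133 CPM on LS. All 7 tested macrophage markers were higher too (median 1.66). No marker of these 4 lists was at 0 in all libraries of a group. The 2 tested distal convoluted tubule markers were called higher as well (median 0.77), and so were 3 of 4 podocyte markers (median 0.30). The straight proximal tubule and thick ascending limb lists did not move one way at HS21. Of 6 straight proximal tubule markers 1 was called higher and 1 lower (median 0.20), and of 5 thick ascending limb markers 3 were called higher and 1 lower. At HS14 the summed convoluted proximal tubule markers were 9411 to 13503 CPM and 2 of the 8 genes were called lower, while 5 of 7 leukocyte markers were called higher. Of 3 tested tubular injury markers 1 was called higher at HS14 (median 1.05) and 2 at HS21 (median 1.96). The part of these shifts in the changes of the antioxidant genes was not tested.

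Within the diet groups of the Cx the antioxidant genes did not move as one. Over the 15 libraries, after removal of the group means, the median correlation of log2 CPM over the 45 pairs of genes was 0.03, and 21 pairs were negative. Without HS14 replicate 10 the median was 0.05 and 20 pairs were negative. With all libraries *Gpx3* and *Sod3* were the pair most alike (r = 0.82) and *Sod3* and *Nqo1* the most opposed (r = -0.84). Over the 14 libraries without HS14 replicate 10 these values were 0.53 and -0.72. The extreme pairs were then *Gclc* and *Txnrd1* (r = 0.64) and *Gpx1* and *Sod3* (r = -0.85). Against the mean of the convoluted proximal tubule markers r was 0.92 for *Sod3*, 0.78 for *Gpx3*, 0.605 for *Txnrd1* and -0.74 for *Nqo1*. HS14 replicate 10 carried much of this, and without it r was 0.67 for *Sod3*, 0.32 for *Gpx3*, 0.264 for *Txnrd1* and -0.49 for *Nqo1*. The values for *Cat* (0.15) and *Sod1* (0.24) were small with that library and without it (0.25 and 0.23), and that for *Gpx1* was -0.25 with it and -0.41 without it. Against the mean of the straight proximal tubule markers r was 0.74 for *Gclc*, and 0.76 without that library. The other genes ran from -0.45 (*Sod2*) to 0.48 (*Txnrd1*) there with all libraries. All these values share library and depth and are given as a description.

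The second question was whether the OM responded. None of the 10 genes was called at HS14 or at HS21. Of all genes tested in the OM, 1 of 14417 (0.00694%) was called at HS14 and 112 of 14555 (0.769%) at HS21, and none of the 10 genes had an unadjusted *P* under 0.05 in either comparison by edgeR. At HS14, 826 genes had an unadjusted *P* under 0.05, and at HS21 1637 had. DESeq2 called 110 and 721 genes there and none of the 10. The leukocyte markers were at a summed 97.3 to 196 CPM on LS, 219 to 284 CPM at HS14 and 287 to 465 CPM at HS21 in the OM, and 5 of 7 were called higher at HS21. The spread between OM libraries was large: the coefficient of variation on LS was 115% for *Gpx3*, 67.7% for *Cat*, 61.7% for *Gclc* and 52.1% for *Sod1*, where it was 5.04%, 10.6%, 48.1% and 4.99% in the Cx.

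*Gpx1* was 183, 374, 191, 195 and 155 CPM in the OM on LS, 194, 236, 152, 170 and 45.2 CPM at HS14 and 188, 175, 186, 226 and 206 CPM at HS21. The value of 374 CPM belongs to LS replicate 2. That of 45.2 CPM belongs to HS14 replicate 10, the shallowest library and the one with the lowest exonic share. The log2 ratio to LS was -0.46 ± 0.38 at HS14 and -0.16 ± 0.22 at HS21 (adjusted *P* = 0.994 and 0.885). Without these 2 libraries the ratio at HS14 was 0.06, and of all genes 6 were then called.

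*Sod2* was the least scattered of the 10 in the OM. It was 249, 307, 276, 257 and 247 CPM on LS, 289, 317, 322, 325 and 268 CPM at HS14 and 307, 294, 293, 295 and 304 CPM at HS21. The HS21 libraries lay in the upper part of the LS range, with a log2 ratio of 0.16 ± 0.08 (adjusted *P* = 0.539). On both days all 5 HS libraries were above the LS median, and the exact permutation test of this single gene, two-sided and without adjustment, gave *P* = 0.0476 at HS14 and at HS21. *Sod3* in the OM ranged from 49 to 202 CPM on LS and from 46.1 to 234 CPM at HS21, and its log2 ratio of 0.40 ± 0.48 had the largest SE of the dismutases.

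A separate test asked if the diet effect was unlike in Cx and OM, by the interaction of tissue and diet, and none of the 10 genes passed it on either day. At HS14, 0 of 15091 genes (0.0%) passed by edgeR, 559 had an unadjusted *P* under 0.05, and DESeq2 called 11. At HS21, 101 of 15194 genes (0.665%) passed. The interaction at HS21 was 0.97 ± 0.52 for *Sod3* (adjusted *P* = 0.381), 0.40 ± 0.28 for *Txnrd1* (adjusted *P* = 0.516) and 0.24 ± 0.24 for *Gpx1* (adjusted *P* = 0.66). It rested on OM LS replicate 2: without that library 1275 genes passed, and *Gpx1* (0.54, adjusted *P* = 0.014) and *Txnrd1* (0.69, adjusted *P* = 0.0469) were among them, their HS21 ratio being higher in the OM than in the Cx. A call in the Cx and none in the OM is thus not shown to be a difference for these genes with all libraries in the fit.

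The third comparison was between the tissues on the LS diet. Kidneys were divided into Cx and OM, so the tissues share rats, but which libraries come from the same rat is not stated, and the tests between tissues treated the libraries as independent. Of 14295 genes tested, 40.9% were called, 21.3% higher in the OM and 19.5% lower (5546 and 1842 genes under total-count scaling), and 29.0% had groups that did not overlap. Of the 10 antioxidant genes 2 were higher in the OM, *Gclc* and *Nqo1*, and 4 were lower, *Gpx3*, *Gpx1*, *Sod3* and *Txnrd1*, and the groups of all but *Txnrd1* among these did not overlap.

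*Gclc* was 4970, 13402, 7567, 7970 and 1511 CPM in the OM on LS. Each value was above the highest Cx library, 682 CPM, and the log2 ratio was 3.99 ± 0.58 (adjusted *P* = 0.000407), 15.9-fold. *Nqo1* was 15.4, 7.52, 13.8, 16.1 and 21.7 CPM, also above each Cx library, with a log2 ratio of 1.92 ± 0.25 (adjusted *P* = 0.000188), 3.77-fold. The 2 genes had opposite extremes within the OM: replicate 2 had the most *Gclc* and the least *Nqo1*, and replicate 5 the reverse.

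*Gpx3* showed the largest difference of all 10 genes. It was 354, 3460, 966, 834 and 158 CPM in the OM, against at least 25519 CPM in the Cx, with a log2 ratio of -4.58 ± 0.76 (adjusted *P* = 0.000909). *Gpx1* was lower by a log2 ratio of -2.26 ± 0.23 (adjusted *P* = 4.49e-05). *Sod3* was 55.7, 202, 117, 96.7 and 49 CPM in the OM, with a log2 ratio of -2.03 ± 0.35 (adjusted *P* = 0.00114). These 3 genes were called in each of the 10 fits with 1 library left out.

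*Txnrd1* was 132, 271, 164, 146 and 95.4 CPM in the OM, and replicate 2 lay within the Cx range. Its log2 ratio of -0.73 ± 0.23 passed narrowly (adjusted *P* = 0.0285), and the call was lost without LS replicate 1, 3 or 4 of the OM (adjusted *P* = 0.0693, 0.055 and 0.0647). *Sod1* (-0.41 ± 0.31), *Cat* (-0.28 ± 0.40), *Sod2* (-0.20 ± 0.08) and *Gpx4* (0.31 ± 0.27) did not pass. DESeq2 called *Sod2* lower in the OM (-0.21, adjusted *P* = 0.0237). Without OM LS replicate 2, *Sod1* (-0.75, adjusted *P* = 0.022), *Cat* (-0.77, adjusted *P* = 0.0415) and *Sod2* (-0.27, adjusted *P* = 0.00385) were called lower in the OM as well. In the same comparison all 8 convoluted proximal tubule markers were lower in the OM (median log2 ratio -5.13), 3 of 6 straight proximal tubule markers were higher (median 1.21) and all 5 markers of the thick ascending limb were higher (median 2.26).

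Within the OM most of the 10 genes rose and fell together from library to library. The median correlation over the 45 pairs, again after removal of the group means over 15 libraries, was 0.60. Of these pairs 25 were above 0.5 and 8 were negative. *Cat* and *Gclc* were the closest pair (r = 0.97). Over the 13 libraries without OM LS replicate 2 and OM HS14 replicate 10 the median was 0.57 and *Cat* and *Gclc* were at 0.98. Then 25 pairs were above 0.5 and 12 were negative. For *Sod2* r with the other genes ran from -0.26 (*Nqo1*) to 0.75 (*Gpx1*) with all libraries. Without these 2 libraries it ran from -0.16 (*Sod3*) to 0.03 (*Gclc*). Against the mean of the 6 straight proximal tubule markers r was 0.97 for *Gclc*, 0.95 for *Cat*, 0.93 for *Txnrd1* and 0.91 for *Gpx3*, and it was -0.63 for *Nqo1*. Without the same 2 libraries these values were 0.98, 0.96, 0.92, 0.88 and -0.60. The convoluted proximal tubule markers gave like values, 0.94, 0.96, 0.90, 0.91 and -0.77 with all libraries. The thick ascending limb markers ran the opposite way, at -0.78, -0.88, -0.86, -0.82 and 0.77 for the same genes in this order. The summed level of the straight proximal tubule markers ran from 1988 to 14942 CPM among the 5 LS libraries of the OM.

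**Figure D4:**
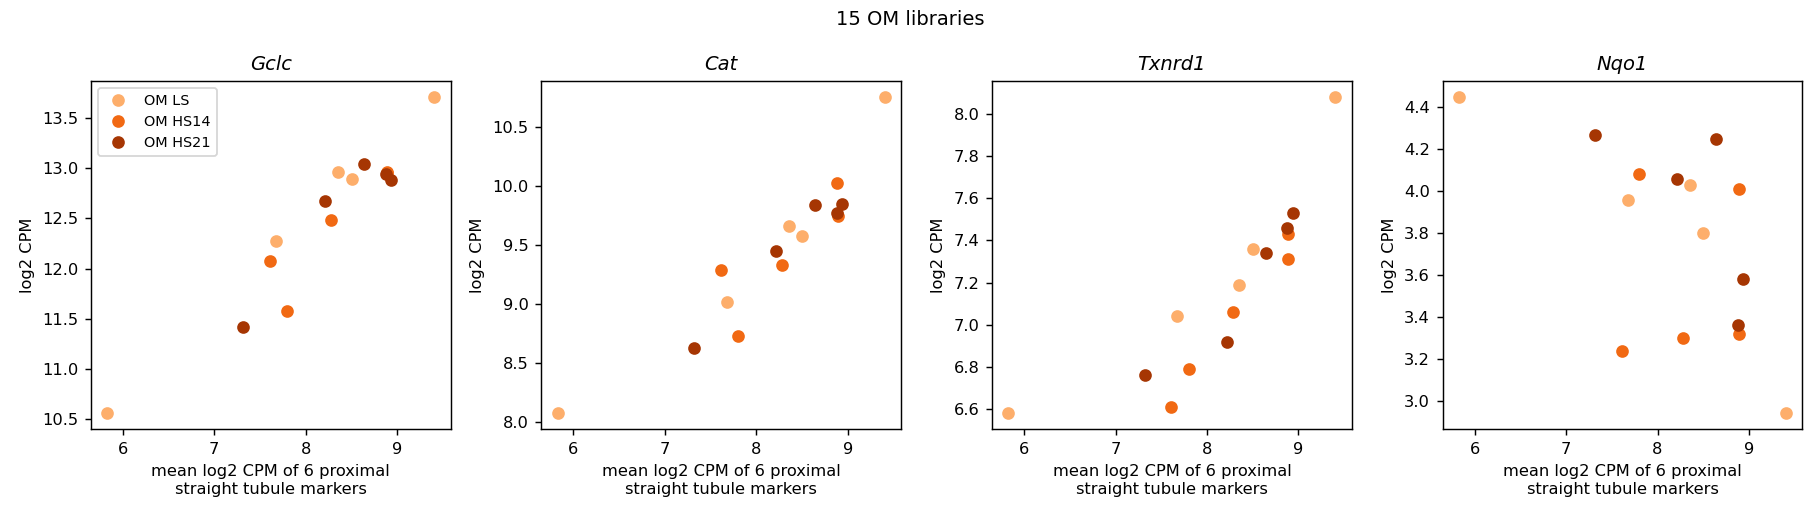
Log2 CPM of *Gclc*, *Cat*, *Txnrd1* and *Nqo1* (y axis) against the mean log2 CPM of 6 straight proximal tubule markers (x axis) in the 15 OM libraries, coloured by diet. *Gclc*, *Cat* and *Txnrd1* rise along the marker axis (r = 0.97, 0.95 and 0.93 after removal of the group means) and *Nqo1* falls (r = -0.63), and LS libraries stand at both ends.

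The wider antioxidant system was read from 9 lists of related genes, which share some genes with each other. At HS21 in the Cx, where 18.9% of all genes were called higher and 20.5% lower, the list of selenoprotein synthesis and selenium transport had 8 of 11 genes lower and 2 higher, with a median log2 ratio of -0.38. *Lrp2*, the megalin receptor of the proximal tubule, fell by 0.99 on the log2 scale (SE 0.08, adjusted *P* = 1.56e-05), and *Sephs2*, which makes the selenium donor and is itself a selenoprotein, fell by 0.65 (SE 0.05, adjusted *P* = 1.2e-05). The selenoprotein P receptor *Lrp8* rose by 0.94 ± 0.19 and *Pstk*, a kinase of selenocysteine synthesis, by 0.26 ± 0.08. The other selenoproteins had 5 of 14 genes lower and 2 higher, the latter *Selenom* (0.79 ± 0.07) and *Selenon* (0.46 ± 0.08), and *Txnrd3*, a further thioredoxin reductase, was among the lower ones (-0.64 ± 0.10).

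Of NRF2 and its regulators 4 of 8 genes were lower at HS21 and none higher. The largest changes were in *Bach1*, a repressor at the same DNA element (-0.52 ± 0.08, adjusted *P* = 0.000553), and *Sqstm1*, an adaptor that binds KEAP1 (-0.22 ± 0.06, adjusted *P* = 0.00946). *Nfe2l2*, which encodes NRF2, was also lower (-0.22 ± 0.07, adjusted *P* = 0.0295). Of 15 tested NRF2 targets outside the set 8 were lower and 2 higher. *Me1*, the cytosolic malic enzyme (-0.66 ± 0.11), and *Ephx1*, the microsomal epoxide hydrolase (-0.64 ± 0.08), led the lower ones. *Hmox1*, heme oxygenase 1 (1.16 ± 0.40, adjusted *P* = 0.0398), and *Srxn1*, sulfiredoxin (0.80 ± 0.16, adjusted *P* = 0.00216), were the higher ones. *Ephx1* was the single gene of the 9 lists called at HS14 (-0.52 ± 0.08, adjusted *P* = 0.0124).

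**Figure D5:**
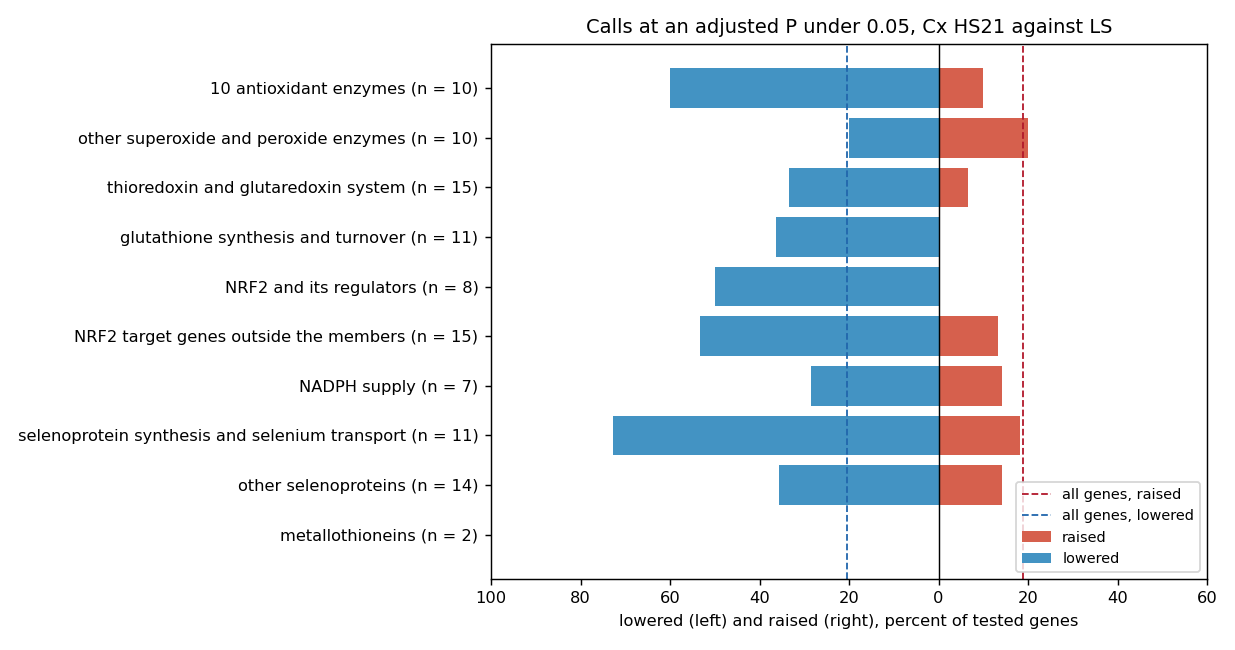
Share of the tested genes of each list called lower (left, blue) and higher (right, red) in the Cx at HS21 against LS, with dashed lines at the shares over all genes (20.5% and 18.9%). The bars of selenoprotein synthesis and selenium transport (8 of 11 lower) and of the NRF2 targets (8 of 15 lower) reach far past the dashed line on the left, and the bar of the other superoxide and peroxide enzymes ends near it.

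Glutathione synthesis and turnover had 4 of 11 genes lower at HS21 and none higher, among them *Anpep*, a brush border peptidase (-0.55 ± 0.16), and *Oplah*, which returns glutamate to the cycle (-0.43 ± 0.09). In the thioredoxin and glutaredoxin system 5 of 15 were lower, led by the methionine sulfoxide reductase *Msra* (-0.66 ± 0.09), and *Srxn1* was the one higher. The other superoxide and peroxide enzymes were near the background, with 2 of 10 higher (*Gpx8*, 0.57 ± 0.12, and *Prdx5*, 0.14 ± 0.05) and 2 lower (*Prdx1* and *Prdx3*, both -0.27). Of the NADPH supply *Me1* and *Idh1* (-0.61 ± 0.08) were lower and *Me3* (0.64 ± 0.16) was higher out of 7 genes, and of 2 tested metallothioneins none was called.

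Between HS14 and HS21, where 9.69% of all genes tested were called lower and 6.5% higher, the lower genes included 6 of 11 in selenoprotein synthesis and transport, with *Lrp2* (-0.94 ± 0.13), *Selenop*, the selenium carrier of plasma (-0.79 ± 0.20), and *Sephs2* (-0.52 ± 0.09), while *Lrp8* was higher (0.83 ± 0.22). In the thioredoxin and glutaredoxin system 4 of 15 were lower, *Msra* (-0.45 ± 0.10), *Txnrd3* (-0.44 ± 0.08), the sestrin *Sesn1* (-0.26 ± 0.06) and the mitochondrial thioredoxin reductase *Txnrd2* (-0.24 ± 0.07), and thioredoxin itself, *Txn1*, was higher (0.30 ± 0.08, adjusted *P* = 0.0246). Of the NADPH supply *Idh1* (-0.49 ± 0.11), *Idh2* (-0.28 ± 0.07) and the transhydrogenase *Nnt* (-0.26 ± 0.07) were lower. Other lower genes were *Prdx3* (-0.24 ± 0.05), *Oplah* (-0.36 ± 0.10), *Gsr* (-0.21 ± 0.06), *Ugdh* (-0.47 ± 0.09) and *Cul3*, the ubiquitin ligase scaffold that works with KEAP1 (-0.20 ± 0.06). *Gpx8* (0.46 ± 0.10), *Selenom* (0.53 ± 0.08) and *Selenon* (0.28 ± 0.08) were higher. None of the list genes was called in the OM at HS14 or HS21, and in the interaction at HS21 *Selenom* alone passed (-0.89 ± 0.18, adjusted *P* = 0.0301).

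In the OM against the Cx on LS 21.3% of all genes tested were called higher and 19.5% lower. The partners of *Gclc* in glutathione synthesis were higher in the OM. *Gclm*, the modifier subunit of the same ligase, was higher by 2.84 ± 0.44 on the log2 scale (adjusted *P* = 0.000603), 7.17-fold, and *Gss*, glutathione synthetase, by 2.02 ± 0.42 (adjusted *P* = 0.00328), 4.04-fold. Of the 12 genes tested in this list 5 were higher and 3 lower, the latter including *Dpep1*, a dipeptidase (-2.86 ± 0.20), and *Gsr*, glutathione reductase (-0.81 ± 0.11). The NRF2 target *Osgin1* was higher by 3.25 ± 0.46, while *Nfe2l2* itself was lower by a log2 ratio of -0.81 ± 0.09 (adjusted *P* = 6.66e-05), as were *Sqstm1* (-0.67 ± 0.11) and 8 of the 15 tested NRF2 targets, led by *Ugdh*, which makes UDP-glucuronate (-1.37 ± 0.17), and *Ephx1* (-1.26 ± 0.16).

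Of selenoprotein synthesis and selenium transport 5 of 11 genes were lower in the OM, led by *Selenop* (-1.79 ± 0.25) and *Scly*, selenocysteine lyase (-1.48 ± 0.25), and 2 were higher, *Lrp8* (1.33 ± 0.19) and *Pstk* (0.47 ± 0.14). The shares over all genes tested, for this list and those below, were 19.5% lower and 21.3% higher. The other selenoproteins had 6 of 14 lower and *Selenom* (0.74 ± 0.16) and *Selenon* (0.69 ± 0.23) higher. In the thioredoxin and glutaredoxin system 8 of 15 were lower, led by *Sesn2*, a stress-induced sestrin (-1.72 ± 0.14), and the selenoprotein *Msrb1* (-1.20 ± 0.40), and none was higher. Of the other superoxide and peroxide enzymes 3 of 10 were higher, among them *Gpx8* (1.05 ± 0.23) and *Prdx5* (0.40 ± 0.08), and *Gpx2* (-0.91 ± 0.17) and *Ccs*, the copper chaperone of *Sod1* (-0.47 ± 0.14), were lower. Of the NADPH supply the genes called included *Me3*, which was higher (1.22 ± 0.22), and *Idh1*, which was lower (-1.78 ± 0.38). Both tested metallothioneins, metal-binding proteins that also take up oxidants, were lower, *Mt2A* by a log2 ratio of -1.67 ± 0.16 and *Mt1m* by -1.38 ± 0.33.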

How the data were processed

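RNA of snap-frozen Cx and OM was poly(A)-selected and sequenced as unstranded libraries. The authors aligned the reads to Rnor_6.0 and counted them per gene, and the submitters' processing notes name HISAT2 2.0.5, StringTie 1.3.3b and featureCounts 1.5.0-p3. All tests but one alternative start from the deposited counts, which were not normalized. The FPKM, also the authors' own, served to compare levels between genes and in one alternative fit. The gene length is deposited in bases. Columns of the authors' 7 comparisons (group means, fold changes and p-values) were not used.

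Samples were grouped by their labels. edgeR 4.0.16 in R 4.3.3 was run on the libraries compared, with filterByExpr, scaling by the trimmed mean of M values and the quasi-likelihood test, and *P* was adjusted over all genes tested by Benjamini and Hochberg's method, with a threshold of 0.05. The interaction of tissue and diet was fitted to both tissues, LS with HS14 or with HS21. Log2 CPM used a prior count of 2. Members were compared one by one with an exact permutation test (two-sided) as well. The edgeR and DESeq2 fits were tested on simulated data. Alternatives were DESeq2 1.42.0, limma 3.58.1 on log2(FPKM + 1), other scalings, no filter, all libraries of a tissue, a replicate block and leaving out libraries.

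All 10 genes are named. Of each list, the 2 higher and 2 lower genes with the largest ratio among those called at a mean of at least 1 CPM are named for HS21 in the Cx and for the tissues, and up to 3 called genes of a list for other comparisons. One gene that meets this rule is not reported here. Of 157 listed symbols 151 were found once, 2 stood on 2 rows and were left out, and 4 were not found. The members and lists were chosen with earlier results of these data known. The *P* values measure the spread between the 5 libraries of a group, and depth limits the precision of *Gpx4* and *Nqo1* most.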

Additional observations from a re-analysis of the deposited data

Results flagged for a closer look

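Each group of 5 libraries was checked for a library far from the other 4 by Dixon's ratio of log2 CPM, with a critical value of 0.71, and 4 of the 60 groups of the 10 genes passed it, where chance gives about 1 in 20. All 4 were in the OM. *Gpx1* stood at 374 CPM in OM LS replicate 2, where the other 4 libraries were between 155 and 195 CPM, and at 45.2 CPM in OM HS14 replicate 10, where the others were between 152 and 236 CPM. *Gclc* stood at 2746 CPM in OM HS21 replicate 11, where the others were between 6509 and 8446 CPM. This library had the lowest summed straight proximal tubule markers of its group, 3282 CPM against a median of 9729 CPM, and the part of this in the low value was not tested. *Gpx4* stood at 0.701 CPM in OM HS21 replicate 12, where the others were between 0.993 and 1.13 CPM.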

How the results depend on the processing

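Of 1468 log2 ratios of the 10 genes recomputed under another setting or with libraries left out, 1361 kept their direction and side of the threshold, 17 lost a call, 11 gained one and 79 changed sign, none of the last from a called value. The causes of these changes were not tested. Fits without both OM LS replicate 2 and OM HS14 replicate 10 and correlations without these or without Cx HS14 replicate 10 were chosen after seeing the data. DESeq2 gave *Gpx3* no adjusted *P* between the tissues.

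In the Cx at HS14, the count of genes lowered was 1 of the 10 under total-count scaling, without a low-count filter and by limma, and DESeq2 called 1 of the 10 higher (*Sod2*) and 914 genes in all. Limma gave *Gclc* 0.0439. With 1 library left out, 1 to 2 of the 10 genes and 85 to 471 of all genes were called, and the ranges were -0.15 to 0.0438 for *Gpx3*, -0.21 to 0.0623 for *Sod3*, -0.0885 to 0.0126 for *Cat*, -0.12 to 0.16 for *Nqo1* and -0.26 to 0.13 for *Gclc*.

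In the Cx at HS21, total-count scaling moved the median of all genes to 0.13, with 4401 genes higher and 1653 lower. It called 3 of the 10 genes higher, *Nqo1*, *Gpx4* (0.81) and *Sod2* (0.13), and gave *Gpx3* -0.23 (adjusted *P* = 0.0666). *Sod2* was 0.0103 under relative log expression scaling, 0.0042 by DESeq2 and 0.0029 with all 15 libraries, and -0.0111 to 0.0219 with 1 library left out. Between HS14 and HS21, where total-count scaling moved the median to 0.13 with 2084 genes higher and 644 lower, it gave *Sod1* 0.0122. With 1 library left out, *Gpx1* was -0.0082 to 0.0613, and 0 to 1 of the 10 genes were called higher, 2 to 4 lower, and 1029 to 3524 of all genes.

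In the OM at HS14, 0 genes were called under total-count scaling and without a filter, 2 with all 15 libraries, 110 by DESeq2, and 0 to 6 with libraries left out. Limma gave *Cat* 0.0151. With libraries left out the ranges were -0.63 to 0.0552 for *Gpx1*, -1.53 to 0.17 for *Gpx3*, -0.24 to 0.12 for *Gpx4*, -0.70 to 0.10 for *Sod1*, -0.54 to 0.43 for *Sod3*, -0.42 to 0.33 for *Cat*, -0.56 to 0.16 for *Gclc* and -0.41 to 0.0921 for *Txnrd1*. At HS21, 44 genes were called under total-count scaling, 199 with all 15 libraries, 721 by DESeq2 and 9 to 175 with 1 library left out. Limma gave *Cat* 0.0900 and *Gclc* 0.11. The ranges were -0.27 to 0.11 for *Gpx1*, -0.48 to 1.08 for *Gpx3*, -0.42 to 0.0945 for *Sod1*, -0.33 to 0.35 for *Cat*, -0.13 to 0.20 for *Nqo1*, -0.37 to 0.25 for *Gclc* and -0.25 to 0.15 for *Txnrd1*.

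Between the tissues on LS, total-count scaling moved the median of all genes to 0.27, with 5546 genes higher and 1842 lower in the OM, and gave *Sod2* 0.0325. With 1 library left out, 3 to 7 of the 10 genes were called lower. For the interaction at HS14, DESeq2 called 11 genes, and total-count scaling gave *Sod3* 0.0039. With libraries left out the ranges were -0.25 to 0.46 for *Gpx1*, -1.44 to 0.20 for *Gpx3*, -0.51 to 0.31 for *Sod1*, -0.42 to 0.51 for *Sod3*, -0.36 to 0.34 for *Cat*, -0.47 to 0.20 for *Gclc* and -0.25 to 0.22 for *Txnrd1*. At HS21 the interaction called 58 genes without a filter, 538 by DESeq2 and 42 to 1275 with 1 library left out, of the 10 genes 0 to 2, and the ranges were -0.13 to 1.48 for *Gpx3* and -0.0727 to 0.47 for *Sod1*. Total-count scaling gave a median correlation of 0.42 among the genes in the OM.

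The libraries are numbered 1 to 15 in both tissues, and per the study's methods kidneys were divided into both, but no source used here says that equal numbers mark one rat. The correlation of same-numbered deviations was between -0.15 and 0.61 and over 0.1 in 12 of 15 pairs. Of the 15, 10 correlated best with their own number, with all 5 at HS21, which leans towards pairing. The rule used asked for more than 0.1 in every pair, so the main tests did not pair the samples. With a replicate block, *Gpx3* was -5.34, *Gclc* 3.87 and *Txnrd1* -0.82 (adjusted *P* = 0.0358) between the tissues, 5011 genes were called there, and the interaction called 0 genes at HS14, where *Sod3* was 0.0323 and *Cat* 0.0173, and 94 at HS21. The block changed no call among the 10 genes.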
